A study of Mus musculus with 4 samples.

Results

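The basic helix-loop-helix (bHLH) transcription factors were described in sorted mouse periosteal cells with and without Sfrp4, a secreted antagonist of Wnt signalling. Members were the genes whose transcription factor family is given as bHLH in the deposited gene sheet. Hif1a, Epas1, Myc, Hey1, Heyl, Hes1, Srebf1 and Srebf2 were left out of the family by the choice of members. Of 54532 genes in the sheet, 100 carried the bHLH entry, 6 of them among those left out, and 94 remained as members. A further 1369 genes carried another transcription factor family.

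The data were gene counts from bulk RNA-seq of 2 Sfrp4-/- and 2 wild-type libraries, each a pool of cells from 3 mice aged 4 weeks. The Sfrp4-/- mice were CtskCre;mTmG;Sfrp4-/- and the wild-type mice CtskCre;mTmG;wt, so both genotypes carried the Cre and the reporter. In such mice, cells that have expressed the Cre of Ctsk (cathepsin K), and their descendants, carry GFP, which therefore marks a lineage and not one cell type. Periosteum, the membrane around the bone, was scraped from long bones and digested, and GFP+ CD200+ cells were sorted after removal of cells with CD105, 6C3, Thy1.2 or the markers of blood and vessel cells Ter119, CD31 and CD45. The strain and the sex of the mice were not given in the sources used here. Since each library was a pool, the p-values below measure the spread between pools and not between single mice. In bulk libraries, fewer cells of a type and less RNA per cell cannot be told apart.

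bHLH proteins bind DNA as dimers, through a basic region, at the E-box, whose letters are CANNTG. The broadly expressed E proteins pair with tissue-restricted partners such as the Twist, Scx and myogenic factors. The Id proteins have the dimerisation domain but no basic region, so they hold E proteins off the DNA, and their genes are classical targets of bone morphogenetic protein (BMP) signals. Another branch, with a leucine zipper behind the helices, contains the Max, Mlx, Usf and MiT/TFE proteins, and a branch with PAS domains contains the clock factors, Ahr and Arnt. In skeletal tissue the family is best known for Twist proteins, which restrain Runx2 and so bone formation, and for Scx, a marker of tendon progenitors.

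The libraries held 18750003 and 17341775 gene counts in the Sfrp4-/- pools, against 17119332 and 17669306 in the wild-type pools. Counts were scaled by library total and by the trimmed mean of M-values (TMM) of edgeR to CPM, in which a single count was worth 0.0486 to 0.0667 CPM. Sfrp4 itself read 11.4 and 12.1 CPM in Sfrp4-/- libraries and 90.8 and 108 CPM in wild-type libraries, as the labels say. Its log2 fold change of -3.08 ± 0.31 (SE) had an adjusted p of 0.377 in edgeR's quasi-likelihood test, and between 2.578e-12 and 0.9973 under the other settings tried. Ctsk was abundant, with 1461 and 1684 CPM in Sfrp4-/- libraries and 1054 and 2050 CPM in wild-type libraries. Genes known from osteoclasts were abundant in every library too, among them Acp5 at 1512 and 1890 CPM in Sfrp4-/- and 1305 and 1866 CPM in wild-type libraries. Of the genes for the surface markers removed by the sort, Thy1 had no count in any library. Ptprc (CD45) had 9.45 and 6.81 CPM in Sfrp4-/- libraries and 5.87 and 8.51 CPM in wild-type libraries. Eng (CD105), Pecam1 (CD31) and Enpep (6C3) had 100, 89 and 23 counts over the 4 libraries. The summed level of 9 erythroid genes was 2019 and 2567 CPM in Sfrp4-/- libraries and 720 and 2109 CPM in wild-type libraries. More genes had a count in Sfrp4-/- libraries (17359 and 20080) than in wild-type libraries (16333 and 15400).

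Promoters were searched for E-boxes because the members bind that element and because several of them are known to act on genes of the family itself. The windows were the 250 bases before each start in RefSeq's annotation of GRCm38.p6, the patch release of the mm10 assembly used for the counts. RefSeq promoters matched 76 of the 94 members. On either strand, CACGTG, the E-box preferred by the Max, Usf, MiT/TFE and clock proteins, stood in 7.53% of the 93 windows of members, against 6.02% of the 32851 windows of all genes. The general E-box CANNTG, which includes CACGTG, was found in 61.3% of the members' windows, against 66.2% of all windows. Among tested members, CACGTG stood before Atoh8, Mnt, Mxd4 and Mlx, and these 4 windows are shown since the first 3 return among the comparisons below. They lie at chr6:72235578-72235827 on the minus strand (Atoh8), chr11:74830674-74830923 on the plus strand (Mnt), chr5:34187711-34187960 on the minus strand (Mxd4) and chr11:101087040-101087289 on the plus strand (Mlx). Each is given 5′ to 3′ on its gene's strand, with every CANNTG in capitals.
Atoh8: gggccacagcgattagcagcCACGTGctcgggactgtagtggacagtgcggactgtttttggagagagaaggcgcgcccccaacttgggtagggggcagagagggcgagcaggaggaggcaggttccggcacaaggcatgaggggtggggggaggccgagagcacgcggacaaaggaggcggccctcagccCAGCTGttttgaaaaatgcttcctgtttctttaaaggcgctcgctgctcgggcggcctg
Mnt: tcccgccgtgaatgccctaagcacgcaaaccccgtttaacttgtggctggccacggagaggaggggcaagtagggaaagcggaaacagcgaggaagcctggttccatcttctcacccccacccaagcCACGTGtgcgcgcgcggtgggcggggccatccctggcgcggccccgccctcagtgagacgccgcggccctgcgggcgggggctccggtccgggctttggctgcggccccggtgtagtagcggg
Mxd4: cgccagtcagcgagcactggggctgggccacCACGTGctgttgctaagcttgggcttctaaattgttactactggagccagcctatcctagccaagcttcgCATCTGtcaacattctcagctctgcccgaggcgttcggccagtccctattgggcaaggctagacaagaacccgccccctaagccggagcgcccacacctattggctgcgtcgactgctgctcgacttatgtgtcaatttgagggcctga
Mlx: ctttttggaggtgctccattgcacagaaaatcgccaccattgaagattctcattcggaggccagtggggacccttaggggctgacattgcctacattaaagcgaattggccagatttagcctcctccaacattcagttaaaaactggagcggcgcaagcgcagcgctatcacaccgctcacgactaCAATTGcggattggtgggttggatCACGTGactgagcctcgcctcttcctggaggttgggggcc
A match of letters describes the window and is not a measured binding site.

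Members were unevenly expressed. Of the 94, 61 had at least 1 count in some library, and 37 had enough counts to be tested, each with 54 counts or more over the 4 libraries. Levels between genes were compared per length, in TPM, computed from the counts and the gene lengths in the sheet and scaled to 1 total in every library. On that scale 33 members averaged 1 TPM or more and 16 averaged 10 TPM or more. The summed level of all members was 3091 and 3675 TPM in Sfrp4-/- libraries and 2969 and 3242 TPM in wild-type libraries.

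Id3 alone made up most of that sum. It had 1998 and 2468 TPM in Sfrp4-/- libraries and 1901 and 2152 TPM in wild-type libraries. These were 64.6% and 67.2% of the summed level of all members in Sfrp4-/- libraries and 64.0% and 66.4% in wild-type libraries. Next came Twist1 with 214 and 262 TPM in Sfrp4-/- libraries and 229 and 239 TPM in wild-type libraries. Id2 followed at 155 and 210 TPM in Sfrp4-/- libraries and 155 and 144 TPM in wild-type libraries, and Hes6 at 130 and 127 TPM in Sfrp4-/- libraries and 119 and 138 TPM in wild-type libraries. The levels of these 4 genes over all libraries did not overlap between neighbours in the order. Of the 19 neighbouring pairs among the 20 highest members, the other 16 overlapped, so the order from Hes6 downwards (Id1, Mxd4, Mlx, Scx, Tcf3, Usf1, Max, Mxi1, Bhlhe40, Tcf4, Atoh8, Mlxip, Usf2, Mxd1, Mxd3, Tfeb) is not fixed for most pairs. Within each of the 4 libraries, Hes6 still stood above Id1, and Scx above Tcf3.

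**Figure D1:**
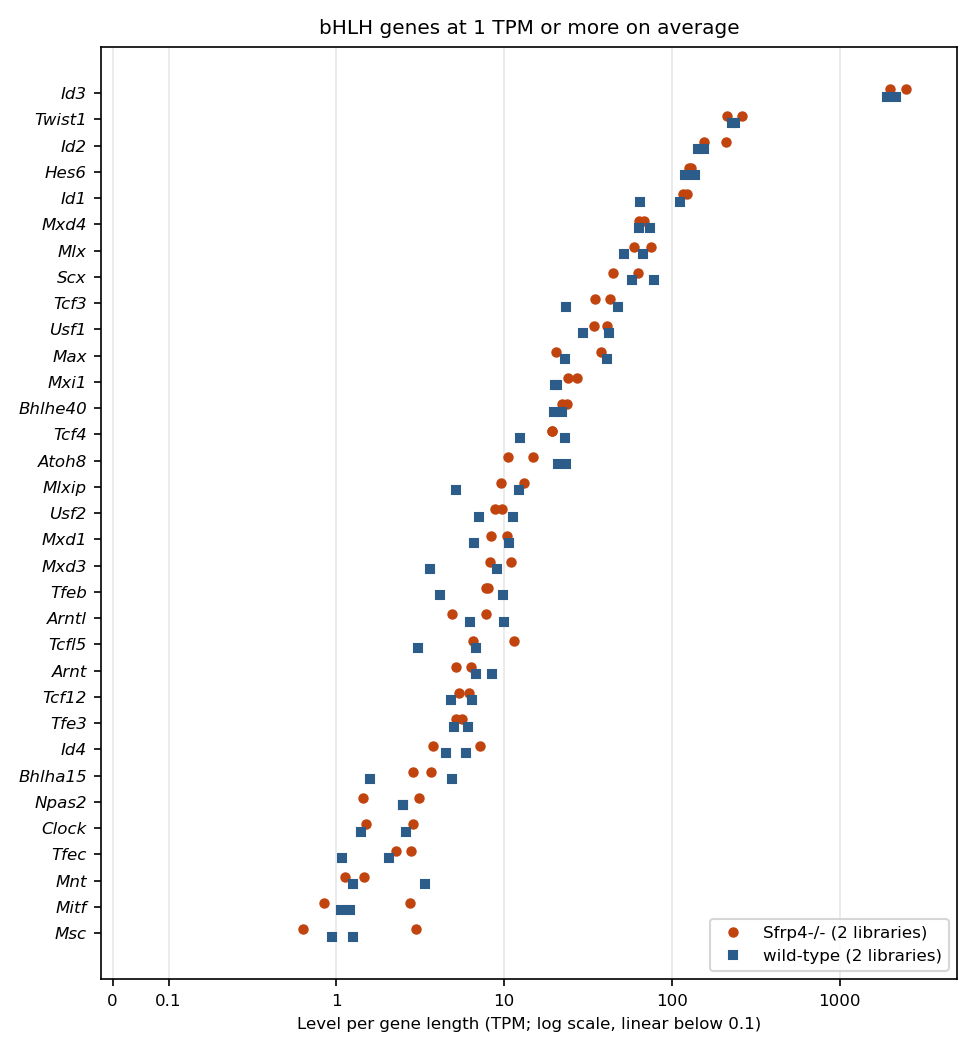
Level per gene length in TPM (log axis, linear below 0.1) of the 33 bHLH genes that averaged 1 TPM or more, with 2 Sfrp4-/- libraries as circles and 2 wild-type libraries as squares. Id3 stands at 1901 to 2468 TPM, apart from all others, and the genotypes overlap for most genes.

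The comparison of Sfrp4-/- with wild-type cells asked which members differ in the absence of Sfrp4. None of the 37 tested members passed an adjusted p of 0.05 in edgeR's quasi-likelihood test, where 0.0% of the 13737 genes tested passed. Their adjusted p was 1.00 in each case. DESeq2 and limma-voom called no member either, while they called 7 and 0 of all genes. At an unadjusted p under 0.05 stood 1 member, Atoh8, beside 2.12% of all genes. The log2 fold change was above 0 for 14 tested members and below 0 for 23, where 50.4% of all genes were above 0. The median was -0.04, against 0.0031 over all genes, and the values ran from -2.24 for Tcf23 to 2.68 for Arnt2. With library totals in place of TMM the median of all genes moved to 0.24 and that of the members to 0.18. The biological coefficient of variation between pools was 41.5%.

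Abundant members lay within 1.5-fold with all 4 libraries, but not with each library left out. Of the 17 tested members that averaged 20 CPM or more, 0 differed by 1.5-fold or more in either direction, and their log2 fold changes ran from -0.49 (Scx) to 0.29 (Id1). Among the other transcription factors at that level 10 of 178 (5.62%) differed by 1.5-fold or more, and among all genes 363 of 5079 (7.15%). The median size of the log2 fold change, sign left aside, was 0.12 in these members, 0.19 in the other transcription factors and 0.18 in all genes. With a library left out in turn, 1 or 2 of the 17 passed 1.5-fold: Max without Sfrp4-/- replicate 1, Scx without Sfrp4-/- replicate 2, Mlxip and Scx without wild-type replicate 1, and Id1 without wild-type replicate 2. The share of all genes past 1.5-fold was then 23.2%, 5.91%, 12.3% and 21.5% in the same order, and that of the other transcription factors 14.0%, 5.06%, 10.1% and 16.9%. The difference between these sets was not tested. Over all tested members, 3 were at least 1.5-fold higher in Sfrp4-/- cells and 4 at least 1.5-fold lower, where 14.2% and 8.99% of all genes were.

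**Figure D2:**
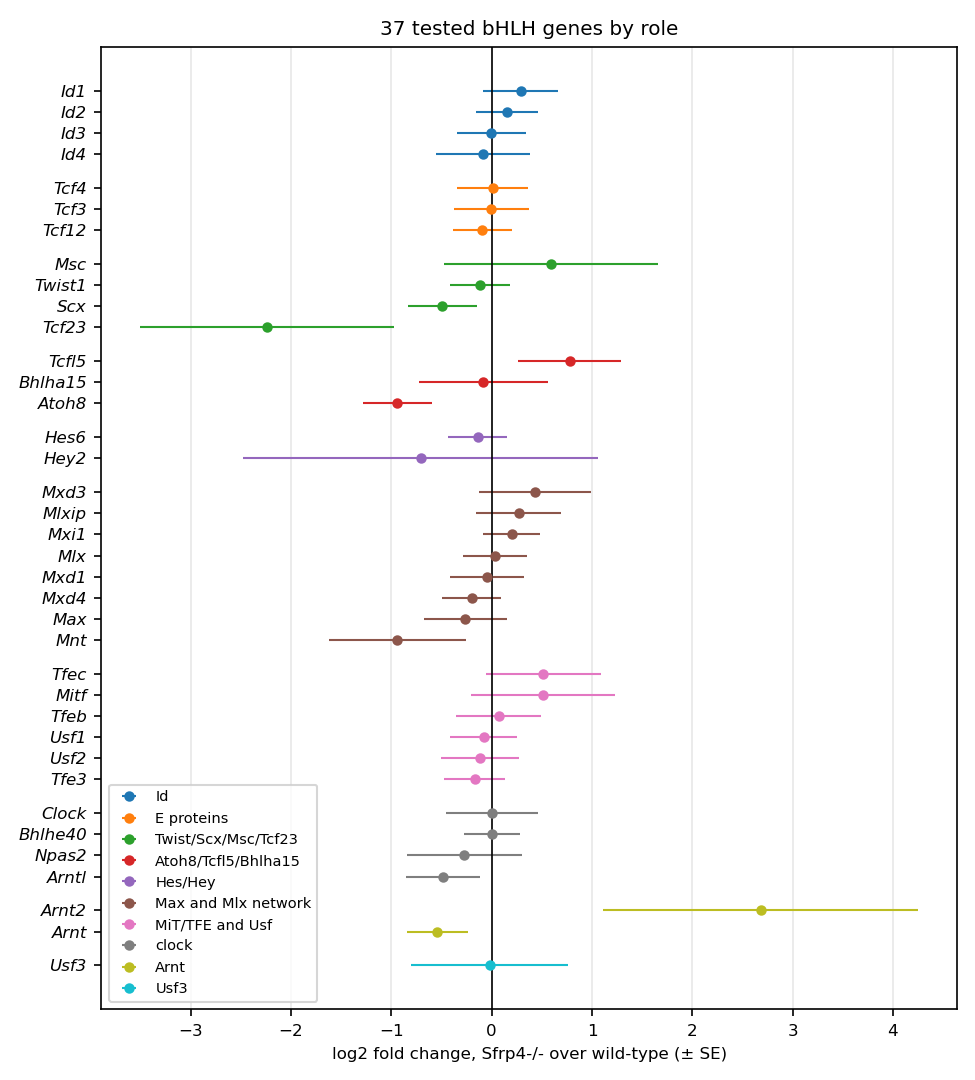
Log2 fold change, Sfrp4-/- over wild-type, with its standard error, for the 37 tested bHLH genes grouped by role (n = 2 libraries per genotype). Most points lie within their standard error of 0, and the outlying values of Tcf23 (-2.24) and Arnt2 (2.68) have standard errors above 1 log2 unit.

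The genotypes were separated for 7 tested members. On TMM-scaled CPM, the Sfrp4-/- pair lay entirely above the wild-type pair for 1 tested member (2.70%; all genes 15.0%) and below them for 6 (16.2%; all genes 12.6%). The member above was Arnt2. It passed the filter on low counts through its Sfrp4-/- libraries alone, so its direction was fixed by the filter on any scale. Those below were Atoh8, Arnt, Tcf23, Mnt, Mxd4 and Tfe3. The split depended on the scale. With library totals it was 5 above and 2 below (all genes 27.1% and 5.19%), and in TPM again 5 above and 2 below (all genes 21.4% and 7.25%). Arnt2 lay above, and Atoh8 and Arnt below, on each of these scales, while Tcf23, Mnt, Mxd4 and Tfe3 overlapped both on library totals and in TPM. Mxi1 lay above on both of those scales, Bhlhe40, Tcf12 and Tcfl5 with library totals alone, and Id1, Id2 and Tfec in TPM alone. Where overlap is described for a gene below, it is on TMM-scaled CPM unless another scale is named.

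Atoh8 encodes an atonal-related factor that in mouse cartilage is known to act on chondrocyte development. The gene lies at chr6:72206177-72235577 on the minus strand. It had 235 and 180 counts in Sfrp4-/- libraries and 311 and 350 counts in wild-type libraries, or 12.7 and 8.76 CPM against 20.7 and 20.4 CPM. Both Sfrp4-/- values were thus below both wild-type values, with means of 10.7 ± 2.78 and 20.6 ± 0.24 CPM (SD, n = 2 each). In log2 units the fold change was -0.94 ± 0.34 (SE), with an unadjusted p of 0.0292 and an adjusted p of 1.00 (edgeR's quasi-likelihood test). It stayed between -1.23 and -0.69 in every setting tried, including each library left out in turn. Since the genotypes did not overlap, leaving out a library could hardly turn its direction. Cartilage genes were measured beside it. The summed level of 5 of them (Acan, Col2a1, Col9a1, Col10a1 and Sox9) was 161 and 66.2 CPM in Sfrp4-/- libraries and 451 and 101 CPM in wild-type libraries. Of the 5, 4 had log2 fold changes below 0 and 1, Col10a1, lay below without overlap, where 12.6% of all genes did. Col10a1 had 2 and 3 counts in Sfrp4-/- libraries and 1064 and 67 in wild-type libraries. Most of its counts thus came from 1 wild-type pool. It passed the filter on low counts through its wild-type libraries alone, so its direction was fixed by the filter. Col2a1 made up most of the sum, and Sox9 was the 1 gene above 0, with 20.7 and 11.3 CPM in Sfrp4-/- libraries and 12.3 and 8.04 CPM in wild-type libraries. The part of cartilage cells in the Atoh8 values was not tested.

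Arnt is the common partner of the PAS-domain receptors, such as Ahr and the hypoxia factors. It lies at chr3:95434388-95497240 on the plus strand. Its level was 14.2 and 16.8 CPM in Sfrp4-/- libraries and 23.9 and 21.3 CPM in wild-type libraries, without overlap. The log2 fold change was -0.54 ± 0.31 (SE), and the adjusted p was 1.00 (edgeR). Its paralogue Arnt2, known mainly from brain and hypothalamus, went the other way at much lower counts. Arnt2 had 27 and 32 counts in Sfrp4-/- libraries against 7 and 0 in wild-type libraries. It passed the filter on low counts through its Sfrp4-/- libraries alone, so its direction was fixed by the filter. The ratio of the levels was 6.93, with a 95% exact interval of 3.16 to 18.0 that covers counting error only. The fitted log2 fold change of 2.68 ± 1.57 (SE) rested on the wild-type library without a count, since it was 1.68 with wild-type replicate 2 left out, and 7.83 with wild-type replicate 1 left out instead. Arnt2 was therefore a gene near the floor, at 0.555 and 0.609 TPM in Sfrp4-/- cells, where Arnt had 5.19 and 6.32 TPM.

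**Figure D3:**
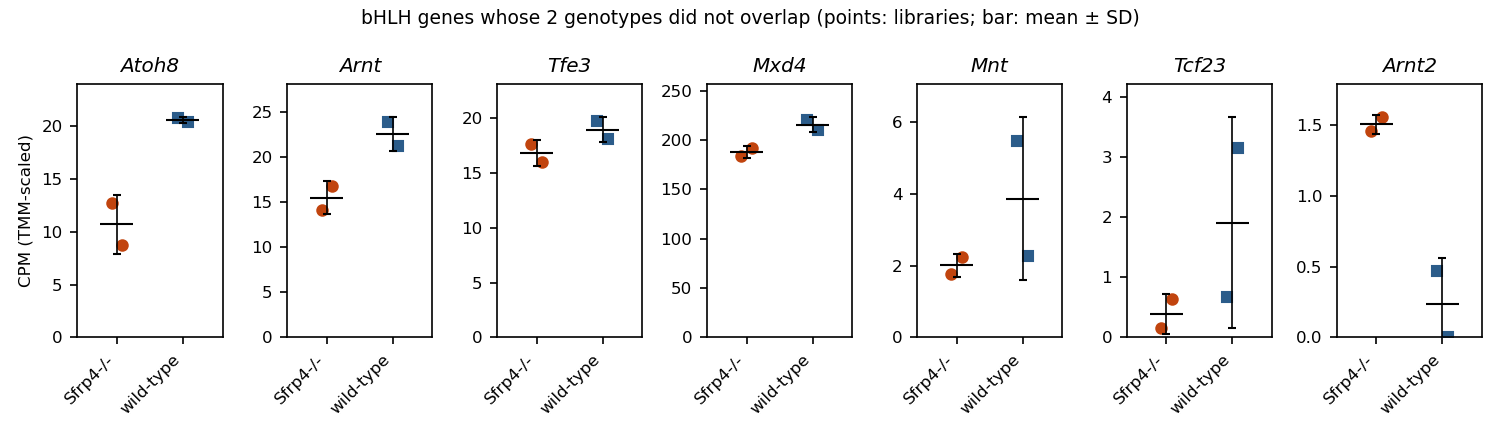
TMM-scaled CPM of the 7 bHLH genes whose libraries did not overlap between genotypes, with each library as a point and the mean ± SD as a bar (n = 2 libraries per genotype, a separate axis for each gene). In each panel both Sfrp4-/- points lie on one side of both wild-type points. They nearly meet in Mnt, where 2.24 CPM in an Sfrp4-/- library stands beside 2.27 CPM in a wild-type library. The same holds in Tcf23, with 0.632 CPM in an Sfrp4-/- library beside 0.667 CPM in a wild-type library.

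The 4 Id genes had overlapping genotypes on TMM-scaled CPM and with library totals, while in TPM Id1 and Id2 lay above without overlap. Id3, at chr4:136143497-136145755, had 1223 and 1469 CPM in Sfrp4-/- libraries and 1200 and 1499 CPM in wild-type libraries, a log2 fold change of -0.0037 ± 0.35 (SE). Id2 read 129 and 170 CPM in Sfrp4-/- libraries and 133 and 136 CPM in wild-type libraries. Id1 read 49.1 and 44.7 CPM in Sfrp4-/- libraries and 26.5 and 50.2 CPM in wild-type libraries, so that a single wild-type library was low. Its log2 fold change was 0.29, and -0.10 without that library. Id4, the least abundant of the 4, had 4.97 and 9.15 CPM in Sfrp4-/- libraries and 6.14 and 8.86 CPM in wild-type libraries.

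Genes that carry or damp BMP signals were set beside the Id genes. None of 10 tested passed the test, 9 of the 10 had log2 fold changes below 0, and their median was -0.36 against 0.0031 for all genes. With library totals 8 of the 10 were below 0, and the median was -0.14 against 0.24 for all genes. In 5 of them both Sfrp4-/- libraries were below both wild-type libraries, where 12.6% of all genes were. With library totals only Bambi was below (all genes 5.19%), and Smad1 lay above without overlap (all genes 27.1%). The most abundant was Bambi, a pseudoreceptor that damps BMP and TGF-beta signals, with 976 and 954 CPM in Sfrp4-/- libraries and 1354 and 1645 CPM in wild-type libraries. Its log2 fold change was -0.64 ± 0.33 (SE; edgeR adjusted p 1.00). Smad4, the shared partner of receptor Smads, read 78.5 and 72.2 CPM in Sfrp4-/- libraries and 105 and 85.3 CPM in wild-type libraries. The others of the 5 were Bmpr1a, Smad5 and Smad7. Smad1 alone had a value above 0, at 0.12.

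The E proteins, the dimer partners that Id proteins bind, had overlapping genotypes on TMM-scaled CPM and in TPM, while with library totals Tcf12 lay above without overlap. Tcf4 had 181 and 176 CPM in Sfrp4-/- libraries and 223 and 132 CPM in wild-type libraries, and Tcf3 had 58.7 and 46.4 CPM in Sfrp4-/- libraries and 68.4 and 37.0 CPM in wild-type libraries. Tcf12 had 32.6 and 27.8 CPM in Sfrp4-/- libraries and 35.2 and 29.3 CPM in wild-type libraries. For Tcf3 and Tcf4 the wild-type values enclosed both Sfrp4-/- values. Summed Id TPM exceeded summed E protein TPM by a factor of 33.5 and 47.2 in Sfrp4-/- libraries and 27.4 and 59.2 in wild-type libraries. The means were 40.4 ± 9.69 and 43.3 ± 22.5 (SD, n = 2 each). The factor depends on the gene lengths of the sheet, which lower the TPM of long gene models such as Tcf4.

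Of the mesodermal and skeletal factors, Twist1 and Scx were abundant. Twist1, at chr12:33957671-33959829, had 119 and 142 CPM in Sfrp4-/- libraries and 132 and 151 CPM in wild-type libraries (log2 fold change -0.12 ± 0.30 SE). Its paralogue Twist2 had 3 and 5 counts in Sfrp4-/- libraries and 3 and 0 counts in wild-type libraries, and 46.5% of its exon bases are shared with a gene on the other strand. Scx had 30.6 and 41.9 CPM in Sfrp4-/- libraries and 40.6 and 61.2 CPM in wild-type libraries, and the genotypes overlapped. Its log2 fold change of -0.49 ± 0.34 (SE) was the lowest among the abundant members, with an adjusted p of 1.00 (edgeR), and was -0.16 without wild-type replicate 2. Tcf23, a factor of the same branch, had 3 and 13 counts in Sfrp4-/- libraries and 10 and 54 counts in wild-type libraries, so that most of its counts came from 1 wild-type pool. Without that pool its log2 fold change of -2.24 became -0.73. In CPM the higher Sfrp4-/- value of Tcf23, 0.632, nearly met its lower wild-type value, 0.667. Msc (musculin), a repressor known from muscle and lymphoid cells, had 48 and 11 counts in Sfrp4-/- libraries and 17 and 16 in wild-type libraries. Hand1 and Tcf21 had no count in any library, and Hand2 had 1.

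None of the 6 bone genes and 6 tendon genes set beside these factors passed the test. Bone genes had a median log2 fold change of -0.19, with 1 above 0 and 5 below, and a median of 0.05 with library totals. Runx2, the factor that Twist proteins hold back, read 135 and 113 CPM in Sfrp4-/- libraries and 125 and 113 CPM in wild-type libraries. Msx2 was the 1 bone gene without overlap, at 4.10 and 3.84 CPM in Sfrp4-/- libraries and 4.13 and 4.55 CPM in wild-type libraries, and its direction turned with library totals (0.10), on which Runx2 was the 1 bone gene without overlap, above. Tendon genes had a median of 0.16, with 4 above 0 and 2 below, and a median of 0.36 with library totals, where that of all genes was 0.24. Tnmd, a tendon gene that depends on Scx in mice, read 48.4 and 26.1 CPM in Sfrp4-/- libraries and 17.3 and 56.1 CPM in wild-type libraries. Mkx, a tendon homeobox gene, was the 1 tendon gene without overlap, at 13.6 and 15.6 CPM in Sfrp4-/- libraries and 11.1 and 12.5 CPM in wild-type libraries (16.7% of the list, against 15.0% of all genes).

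The myogenic members were not detected. Myod1, Myf5, Myf6 and Myog had 0 counts in all libraries, which allows up to 0.162 and 0.146 CPM in Sfrp4-/- libraries and 0.200 and 0.175 CPM in wild-type libraries (3 counts, counting error only). None of 5 tested genes of muscle passed the test, with a median log2 fold change of -0.57, or -0.29 with library totals. Mef2c, which bone and cartilage cells also express, had 396 and 389 CPM in Sfrp4-/- libraries and 411 and 340 CPM in wild-type libraries, and made up nearly all of the list's summed level. Chrna1, a subunit of the acetylcholine receptor, had 0 and 7 counts in Sfrp4-/- libraries and 33 and 23 in wild-type libraries. It passed the filter on low counts through its wild-type libraries alone, so its direction was fixed by the filter. The median of the other 4 genes was -0.54.

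Hes6 differs from other Hes proteins in that it opposes Hes1. It had 80.6 and 76.4 CPM in Sfrp4-/- libraries and 76.1 and 96.9 CPM in wild-type libraries (log2 fold change -0.14 ± 0.30 SE). Hey2, a Notch target, had 8 and 16 counts in Sfrp4-/- libraries and 30 and 0 counts in wild-type libraries, so its direction rested on single pools. Tcfl5, known mainly from testis, read 12.5 and 6.91 CPM in Sfrp4-/- libraries and 7.54 and 3.79 CPM in wild-type libraries. Its log2 fold change was 0.78 ± 0.51 (SE), the genotypes overlapped but did not with library totals, and 7.4% of its exon bases are shared with Col9a3 on the other strand. Bhlha15 (Mist1), known from secretory cells, had 4.37 and 3.31 CPM in Sfrp4-/- libraries and 6.00 and 2.16 CPM in wild-type libraries.

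In the network around Max, the partner that Myc and its antagonists share, 8 members were tested, 4 above and 4 below 0 (6 and 2 with library totals). Mxd4, a repressor of Myc targets, was the most abundant of them in CPM. It had 184 and 192 CPM in Sfrp4-/- libraries and 221 and 211 CPM in wild-type libraries. The log2 fold change was -0.20 ± 0.29 (SE) and turned to 0.04 with library totals. Mnt, the most widely expressed antagonist of Myc, had 1.78 and 2.24 CPM in Sfrp4-/- libraries and 5.47 and 2.27 CPM in wild-type libraries, so that the higher Sfrp4-/- and the lower wild-type value nearly met. Its log2 fold change was -0.94 ± 0.68 (SE), and -0.18 without wild-type replicate 1. Max itself had 46.3 and 24.3 CPM in Sfrp4-/- libraries and 52.3 and 32.3 CPM in wild-type libraries. Mlx, which pairs with the glucose-sensing Mlxip, had 40.4 and 49.9 CPM in Sfrp4-/- libraries and 36.5 and 52.0 CPM in wild-type libraries, and shares 19.3% of its exon bases with Psmc3ip on the other strand. Mlxip, Mxi1, Mxd1 and Mxd3 had log2 fold changes of 0.27, 0.20, -0.04 and 0.43. Of the windows with CACGTG shown above, those of Atoh8, Mnt and Mxd4 belonged to genes with lower TMM-scaled CPM in both Sfrp4-/- libraries. That of Mlx did not. With library totals and in TPM, only Atoh8 of these genes stayed below without overlap. Arnt, Tcf23 and Tfe3, also below on TMM-scaled CPM, were not among the tested members with CACGTG. The pattern was seen after the values were known and was not tested.

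The MiT/TFE proteins switch on lysosome and autophagy genes, and Mitf and Tfe3 also act in osteoclasts. Tfe3 read 17.7 and 16.0 CPM in Sfrp4-/- libraries and 19.7 and 18.1 CPM in wild-type libraries, a log2 fold change of -0.17 ± 0.30 (SE) that turned to 0.06 with library totals. Tfeb had 15.6 and 14.7 CPM in Sfrp4-/- libraries, inside the wild-type values of 19.7 and 9.21 CPM. Mitf and Tfec were less abundant, with 33 and 117 counts of Mitf in Sfrp4-/- libraries and 35 and 50 in wild-type libraries. Tfec, which is known from macrophages and osteoclasts, had 80 and 106 counts in Sfrp4-/- libraries and 32 and 77 in wild-type libraries. The summed level of 10 osteoclast and macrophage genes beside them was 2029 and 2416 CPM in Sfrp4-/- libraries and 1738 and 2347 CPM in wild-type libraries. Of the 10, 8 had log2 fold changes above 0, and 4 lay above without overlap, where 15.0% of all genes did. These 4 were C1qa, C1qb, C1qc and Cd68. The osteoclast genes Acp5, Ocstamp, Dcstamp and Oscar overlapped, with log2 fold changes of 0.10, 0.01, -0.26 and 0.06. Csf1r and Mrc1 overlapped too, and Mrc1 had a log2 fold change of -1.23. Whether the MiT/TFE counts came from osteoclasts or macrophages was not tested. The summed level of 6 mast cell genes, which Mitf is also known to drive, reached at most 2.00 CPM, in an Sfrp4-/- library.

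Usf1 and Usf2, broadly expressed factors that bind CACGTG, had log2 fold changes of -0.08 and -0.12. Of 13 lysosome and autophagy genes with known MiT/TFE sites, none passed the test and 11 were below 0, with a median of -0.33; with library totals 8 were below 0 and the median was -0.11. Ctsb, Hexa and Flcn (23.1% of the list) had both Sfrp4-/- libraries below both wild-type libraries, against 12.6% of all genes. With library totals Hexa alone did (all genes 5.19%), while Rragd and Sqstm1 lay above without overlap (all genes 27.1%). Hexa, an enzyme that degrades gangliosides, had 398 and 327 CPM in Sfrp4-/- libraries and 450 and 461 CPM in wild-type libraries. Ctsb (cathepsin B) had 1046 and 575 CPM in Sfrp4-/- libraries and 1060 and 1047 CPM in wild-type libraries, so that a single Sfrp4-/- pool stood low.

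The clock members form the activating pair of the circadian oscillator, Arntl (Bmal1) with Clock or Npas2, and its repressors Bhlhe40 and Bhlhe41. Arntl had 12.6 and 19.4 CPM in Sfrp4-/- libraries and 26.5 and 18.3 CPM in wild-type libraries, with overlap and a log2 fold change of -0.49 ± 0.37 (SE). Clock had 7.07 and 13.0 CPM in Sfrp4-/- libraries and 12.5 and 7.52 CPM in wild-type libraries, and Npas2 had a log2 fold change of -0.27. Bhlhe40 had 38.2 and 34.4 CPM in Sfrp4-/- libraries and 36.5 and 36.1 CPM in wild-type libraries, with overlap, but lay above without overlap with library totals. The ratio of Arntl to Clock in TPM was 3.25 and 2.73 in Sfrp4-/- libraries and 3.86 and 4.44 in wild-type libraries. The ratio was thus lower in both Sfrp4-/- libraries, but was looked at after the values were known.

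Of 13 tested partners and targets of the clock factors, none passed the test. Above 0 were 11 of them and below 0 were 2, with TMM as with library totals. The median was 0.32, also with Ciart set at the bound of 8.23-fold given below, or 0.54 with library totals. Ciart, Nfil3 and Tef (23.1%) lay above without overlap, where 15.0% of all genes did, and with library totals 5 did, where 27.1% of all genes did. Ciart, a repressor of the oscillator, had 13 and 17 counts in Sfrp4-/- libraries and none in wild-type libraries. A floor of 3 counts over both wild-type libraries gave it a lower bound of 8.23-fold, with the Sfrp4-/- counts taken as exact. It passed the filter on low counts through its Sfrp4-/- libraries alone, so its direction was fixed by the filter, and of the other 12 genes 10 were above 0, with a median of 0.30. Tef, an output factor of the clock, had 9.56 and 8.07 CPM in Sfrp4-/- libraries and 5.54 and 2.86 CPM in wild-type libraries (log2 fold change 1.07 ± 0.48 SE; edgeR adjusted p 1.00). Nfil3, which opposes Tef at the same sites, had 15.6 and 18.0 CPM in Sfrp4-/- libraries and 14.6 and 13.2 CPM in wild-type libraries. Cry1, a repressor of Clock and Arntl, had 23.4 and 16.5 CPM in Sfrp4-/- libraries and 27.7 and 35.8 CPM in wild-type libraries (log2 fold change -0.67 ± 0.33 SE; edgeR adjusted p 1.00). The libraries give no time of day.

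**Figure D4:**
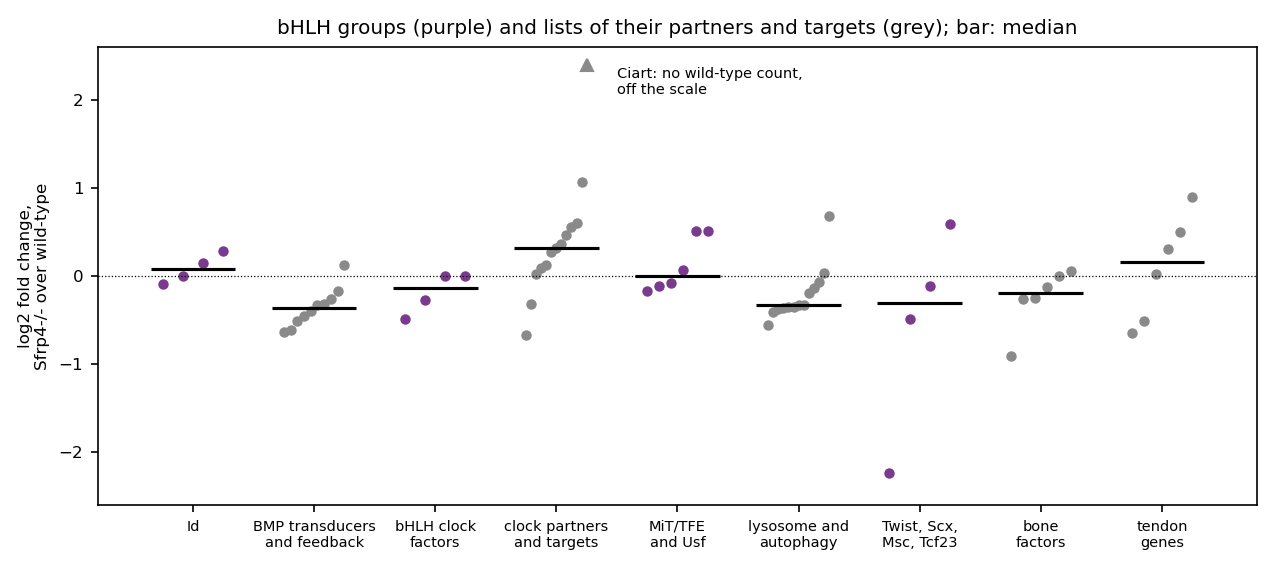
Log2 fold change, Sfrp4-/- over wild-type, of tested bHLH genes by role (purple) and of lists of their partners and targets (grey), 1 point per gene, with the median as a bar. The BMP and lysosome lists have medians of -0.36 and -0.33 and the clock partners 0.32 with TMM, and -0.14, -0.11 and 0.54 with library totals, while the medians of the Id, clock and MiT/TFE bHLH groups lie between -0.14 and 0.07 with TMM and between 0.12 and 0.32 with library totals. Ciart, with no count in wild-type libraries, is drawn as a triangle at the upper edge.

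Ahr, the dioxin receptor, was too low to be tested, with 10 and 9 counts in Sfrp4-/- libraries and 0 and 21 in wild-type libraries. Of 6 tested partners and targets of Ahr none passed the test, and the median log2 fold change was 0.0018, or 0.24 with library totals. Cyp1b1, a target enzyme, had 7.51 and 5.74 CPM in Sfrp4-/- libraries and 5.0 and 4.37 CPM in wild-type libraries, and Tiparp, another target, 32.7 and 37.3 CPM in Sfrp4-/- libraries and 27.3 and 31.7 CPM in wild-type libraries. These 2 of the 6 (33.3%) lay above without overlap, where 15.0% of all genes did. With RLE factors, the scaling of DESeq2, Hsp90ab1 and Nqo1 also lay below without overlap, while with library totals Hsp90ab1 lay above. Cyp1a1 and Cyp1a2 had no count, and Ahrr, the repressor of Ahr, had none either.

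The remaining 24 members with counts were not tested, with 1 to 52 counts over the 4 libraries. The 5 with the most counts were Mycl, Ahr, Mycn, Tal1 and Bhlhe41. Mycl had 0 and 7 counts in Sfrp4-/- libraries and 7 and 38 in wild-type libraries, a ratio of 0.128 (95% exact interval 0.0487 to 0.286). Mycn had 22 and 5 counts in Sfrp4-/- libraries and 8 and 0 in wild-type libraries, a ratio of 2.78 (1.23 to 7.07). In both genes most counts came from a single pool, and both intervals cover counting error only. In CPM the genotypes of Mycn overlapped, with 1.19 and 0.243 in Sfrp4-/- libraries and 0.534 and 0 in wild-type libraries. Bhlhe41 had 14 and 6 counts in Sfrp4-/- libraries and 4 and 8 in wild-type libraries. Of the 24, 10 (41.7%) had counts in Sfrp4-/- libraries only and 2 (8.33%) in wild-type libraries only. Among all 8014 untested genes with a count these shares were 50.6% and 9.17%, close to those of the members.

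Tal1, Lyl1 and Tal2, factors of blood development, were among these members. Tal1 had 20 and 6 counts in Sfrp4-/- libraries and 6 and 1 in wild-type libraries, a ratio of 3.06 (95% exact interval 1.29 to 8.34). That interval covers counting error only. In CPM the genotypes of Tal1 overlapped, with 1.08 and 0.292 in Sfrp4-/- libraries and 0.400 and 0.0583 in wild-type libraries. Lyl1 had 6 and 4 counts in Sfrp4-/- libraries and none in wild-type libraries. A floor of 3 counts over both wild-type libraries gave it a lower bound of 2.74-fold, with the Sfrp4-/- counts taken as exact. Tal2 had 3 and 6 counts in Sfrp4-/- libraries and none in wild-type libraries, a lower bound of 2.47-fold by the same floor. Of the 9 erythroid genes whose sums are given above, 9 had log2 fold changes above 0, with a median of 1.29, and 5 (55.6%) lay above without overlap, where 15.0% of all genes did. Genes of other blood cells were measured too. The summed level of 5 B cell genes was 40.0 and 57.5 CPM in Sfrp4-/- libraries and 24.9 and 47.0 CPM in wild-type libraries, and 4 of the 5 had log2 fold changes above 0. That of 7 neutrophil and eosinophil genes was 499 and 497 CPM in Sfrp4-/- libraries and 250.1 and 359 CPM in wild-type libraries, with 4 of 6 tested above 0. Mpo and Elane were below 0, at -1.09 and -0.79. The makeup of the sum differed between pools. Prg2 had 116 and 0.924 CPM in Sfrp4-/- libraries and 0 and 23.3 CPM in wild-type libraries. S100a9 had 85.3 and 241 CPM in Sfrp4-/- libraries and 28.3 and 105 CPM in wild-type libraries. Megakaryocyte genes summed to 7.34 and 17.4 CPM in Sfrp4-/- libraries and 24.1 and 11.0 CPM in wild-type libraries, and all 3 tested were below 0, with a median of -0.02. The sort was negative for Ter119, the erythroid marker. The part of blood cells in the counts of Tal1, Lyl1 and Tal2 was not tested. Ascl2, a stem cell factor of the intestine, had 2 and 13 counts in Sfrp4-/- libraries and none in wild-type libraries. The same floor gave it a lower bound of 4.11-fold.

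Another 33 members had no count in any library. They included the proneural factors Neurog1, Neurog2 and Neurog3 and the glial factors Olig1, Olig2 and Olig3, besides the 4 myogenic factors, Hand1 and Tcf21.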

How the data were processed

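Per the labels' protocols, RNA of sorted cells went into ultra-low-input, non-directional SMARTer libraries, so reads of genes that overlap on opposite strands cannot be told apart. Per the submitters' processing notes, reads were handled on the mm10 genome with these tools, named without their roles: DESeq2 1.20.0, featureCounts 1.00-p3, HISAT2 2.0.5 and CASAVA. The authors deposited raw counts per gene with gene lengths and transcription factor families, and 99.9% of identifiers matched GENCODE M21. From them TPM and TMM-scaled CPM were computed. Genes kept by filterByExpr were fitted with edgeR 4.0.16 (quasi-likelihood, genotype as the factor, Benjamini-Hochberg over 13737 genes). Ratios of genes with 10 or fewer counts in a genotype have exact intervals at the 95% level. DESeq2 1.42.0, limma-voom 3.58.1, other scalings and filters, a replicate block and each library left out were tried. The test was checked on simulated counts. Read duplicates could not be removed, since no molecular identifiers are given, so intervals cover counting error only. No library pair was a duplicate.

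The members, roles and lists were chosen with earlier results of these data known. Named members were the 20 highest in TPM, those without overlap, every tested member by role, and the 5 untested with most counts. Twist2, Hand2, Lyl1, Tal2, Ascl2, Smad1, Smad7, Runx2, Tnmd, Mef2c, Sox9, Ptprc, Eng, Pecam1, Enpep, Hsp90ab1, Nqo1 and the members without counts were named beyond that rule, after their values were seen. So were Col10a1, Acp5, Ocstamp, Dcstamp, Oscar, Csf1r, C1qa, C1qb, C1qc, Cd68, Mrc1, Rragd and Sqstm1.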

Additional observations from a re-analysis of the deposited data

How the results depend on the processing

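None of the 37 tested bHLH genes passed an adjusted p of 0.05 under any setting tried, and the lowest adjusted p was 0.32, for Arnt2 without wild-type replicate 1. Over all genes the count of 0 became 20 without a filter on low counts, 7 with DESeq2, 1 with the replicate block, and 0 to 2 with a library left out. The replicate numbers are not tied to shared animals or days by the labels. Deviations of same-numbered libraries correlated at 0.37 over only 2 pairs, so the block is reported here alone. It changed no call on a member.

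The median log2 fold change of the tested members was 0.18 with library totals and between -0.18 and 0.0088 with a library left out. The count of 7 members without overlap was 19 to 26 with a library left out, since 1 library then stands against 2, and 7 in TPM, a scale added after the data were seen. The filter at 5 CPM kept 27 of the 37 members.

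Of the 37 tested members, 10 kept their direction in every setting: Arnt, Arnt2, Arntl, Atoh8, Mnt, Mxi1, Scx, Tcf23, Tcfl5 and Tfec. Of these, Arnt, Arnt2, Atoh8, Mnt and Tcf23 had no overlap on TMM-scaled CPM, so leaving out a library could hardly turn them. Arnt2 had also passed the filter on low counts through its Sfrp4-/- libraries alone, so its direction was fixed by the filter. Library totals turned the log2 fold change of Id3 (0.24), Twist1 (0.13), Hes6 (0.083), Mxd4 (0.041), Tcf3 (0.24), Usf1 (0.15), Bhlhe40 (0.23), Usf2 (0.12), Mxd1 (0.18), Tcf12 (0.14), Tfe3 (0.062), Id4 (0.17), Bhlha15 (0.17), Npas2 (0.0034), Usf3 (0.30) and the bone gene Msx2 (0.10). The 5 CPM filter turned Id3 (0.026), Tcf3 (0.030) and Bhlhe40 (0.029). With limma-voom Tcf3 (0.056), Mxd1 (0.00074), Bhlha15 (0.11), Usf3 (0.14) and Hey2 (1.53) turned, and with the replicate block Tcf3 (0.053), Mxd1 (0.0049), Bhlha15 (0.068), Clock (-0.015), Usf3 (0.064) and Hey2 (0.71). Scaling by RLE turned Tcf4 (-0.00023) and Clock (-0.011), DESeq2 turned Tcf4 (-0.0020) and Clock (-0.014), and leaving out the filter turned Clock (-0.0034). The cause was not tested, beyond the shift of all genes by library totals.

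Leaving out a library in turn gave these ranges of the log2 fold change: Id3 -0.16 to 0.17, Twist1 -0.24 to 0.0068, Id2 -0.053 to 0.34, Hes6 -0.30 to 0.045, Id1 -0.10 to 0.82, Mlx -0.20 to 0.31, Tcf3 -0.38 to 0.51, Usf1 -0.37 to 0.29, Max -0.80 to 0.14, Bhlhe40 -0.075 to 0.079, Tcf4 -0.32 to 0.44, Mlxip -0.18 to 0.93, Usf2 -0.35 to 0.17, Mxd1 -0.40 to 0.43, Mxd3 -0.12 to 1.35, Tfeb -0.38 to 0.72, Tcf12 -0.22 to 0.044, Id4 -0.59 to 0.29, Bhlha15 -0.64 to 0.83, Npas2 -0.89 to 0.17, Clock -0.50 to 0.42, Mitf -0.55 to 1.12, Msc -0.94 to 1.33, Usf3 -0.72 to 1.00 and Hey2 -1.71 to 6.52. Counts were few for the 24 untested members and, among tested ones, for Arnt2, Hey2, Tcf23 and Msc, which had under 100 counts in all. The cause of the low counts was not tested.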
